A study of Mus musculus with 31 samples.

Results

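The genes described here encode the proteins of the cytoplasmic ribosome. They were taken by symbol: every gene whose name is Rpl or Rps followed by a number, with at most 1 letter a, l or x at the end, together with *Rplp0*, *Rplp1*, *Rplp2* and *Rpsa*, and without any symbol that holds a hyphen. The rule used names only and found 80 genes, 48 of the large (60S) and 32 of the small (40S) subunit, among the 18477 genes of the table. RNA was sequenced from yolk sacs of individual mouse embryos at embryonic day 8.5, and the labels place 31 libraries in 6 genotypes of *Etv2*, the gene of an Ets transcription factor needed for blood and endothelial development. The Δ allele lacks coding exons of *Etv2* and was made by germline recombination with the Mef2c-AHF-Cre transgene. The enhΔ allele lacks an upstream *Etv2* enhancer, deleted by CRISPR in fertilised eggs, and leaves the coding sequence in place. There were 5 *Etv2* Δ/Δ libraries (2 labelled female, 3 male), 5 *Etv2* enhΔ/Δ libraries (3 female, 2 male), 5 *Etv2* enhΔ/enhΔ libraries (4 female, 1 male), 6 *Etv2* +/Δ libraries (4 female, 2 male), 4 *Etv2* +/enhΔ libraries (2 female, 2 male) and 6 *Etv2* +/+ libraries (5 female, 1 male). All embryos came from matings among mice that carried 1 enhΔ or 1 Δ allele, and the strain of every sample is labelled as mixed.

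Each cytoplasmic ribosome joins a small subunit, which reads the messenger RNA, to a large subunit, which forms the peptide bond. Nearly every ribosomal protein is present once in each ribosome and most are needed by all cells, so their messenger RNAs are abundant in growing tissue. Many of these messenger RNAs begin with a C followed by a run of pyrimidines, the 5′ terminal oligopyrimidine tract, through which their translation follows the mTOR pathway. In people, loss of 1 copy of one of several of these genes causes Diamond-Blackfan anaemia, in which red cell precursors fail. The yolk sac is the site of the first red cells in the mouse embryo.

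The region around the annotated start is shown for the genes that passed a test between genotypes, because an oligopyrimidine tract begins at the start of the transcript. Each line gives 15 bases before and 15 bases from the annotated start in RefSeq (GRCm38.p6), 5′ to 3′ on the strand of the gene. The longest run of C and T is in capitals, wherever it lies, so the capitals do not by themselves mark a tract. The run spans the annotated start only in *Rpl14* and at the second start of *Rpl34*. It lies after the start in *Rps12* and *Rpl10*, and before it in the other windows.
Rps12, chr10:23787195-23787224, minus strand: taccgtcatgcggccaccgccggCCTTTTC
Rpl23, chr11:97782425-97782454, minus strand: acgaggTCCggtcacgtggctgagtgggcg
Rpl37, chr15:5116598-5116627, plus strand: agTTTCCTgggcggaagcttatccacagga
Rpl27, chr11:101442230-101442259, plus strand: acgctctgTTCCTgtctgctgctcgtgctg
Rpl14, chr9:120571502-120571531, plus strand: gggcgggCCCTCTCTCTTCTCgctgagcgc
Rpl4, chr9:64173372-64173401, plus strand: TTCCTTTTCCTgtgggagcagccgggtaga
Rpl10, chrX:74270801-74270830, plus strand: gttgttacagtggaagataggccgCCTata
Rplp0, chr5:115559452-115559481, plus strand: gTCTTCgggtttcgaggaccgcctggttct
Rpl34, first start, chr3:130730384-130730413, minus strand: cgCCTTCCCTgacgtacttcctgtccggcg
Rpl34, second start, chr3:130730323-130730352, minus strand: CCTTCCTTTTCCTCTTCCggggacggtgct

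The longest runs among these windows were 18 bases at the second start of *Rpl34* and 14 bases at *Rpl14*, and the shortest were 3 bases at *Rpl23* and *Rpl10*. Promoter windows were found for 58 of the 80 genes, 69 windows in all since 9 genes had several. A C followed by 4 pyrimidines stood exactly at the annotated start in 13 of the 69 windows (18.8%), against 2.51% of all 32851 mouse promoter windows and none of the 73 windows of mitochondrial ribosomal protein genes. A run of 8 or more pyrimidines within 25 bases of the start was present in 47.8% of the windows, against 19.7% of all promoters, 21.9% for mitochondrial ribosomal protein genes and 8.89% for ribosome biogenesis genes. The letters GGAAG, or CTTCC on the same strand, which form the core of Ets family motifs, occurred somewhere in the 300-base window for 92.8% of the windows and for 71.4% of all promoters. For ribosome biogenesis genes they occurred in 84.4% of windows, and for mitochondrial ribosomal protein genes in 78.1%. CTTCC is itself a pyrimidine run, so the last 2 features overlap.

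Libraries held 2671612 to 22396340 reads in genes, and every deposited value gave back a whole number of reads within 0.01 reads. Levels are given as CPM, the reads of a gene scaled to the size of its library. The visceral endoderm markers *Afp*, *Ttr* and 7 others summed to 36057–63406 CPM in *Etv2* Δ/Δ and 37768–46844 CPM in *Etv2* +/+ yolk sacs, while neural ectoderm markers reached at most 2.89 CPM in *Etv2* +/+. The 7 erythroid markers summed to 7.33–62.4 CPM in *Etv2* Δ/Δ, 386–2180 CPM in *Etv2* enhΔ/Δ and 1308–5062 CPM in *Etv2* +/+, with *Gata1* at a median of 0 CPM in *Etv2* Δ/Δ, and the 5 endothelial markers to 94.6–148 CPM in *Etv2* Δ/Δ, 488–532 CPM in *Etv2* enhΔ/Δ and 274–408 CPM in *Etv2* +/+. The endothelial markers did not move alike: *Tek* had a median of 112 CPM in *Etv2* Δ/Δ and 129 CPM in *Etv2* +/+. In the same order, the medians were 1.93 and 91.0 CPM for *Cdh5*, and 1.23 and 22.9 CPM for *Pecam1*. They were 1.32 and 38.8 CPM for *Fli1*, and 21.7 and 106 CPM for *Kdr*. The 5 extraembryonic mesoderm markers in the table of 6 listed, *Col1a1* and *Postn* among them, summed to 638–1437 CPM in *Etv2* Δ/Δ, 629–974 CPM in *Etv2* enhΔ/Δ and 328–451 CPM in *Etv2* +/+, without overlap between either mutant and *Etv2* +/+. In whole yolk sacs, fewer cells of a type and less RNA per cell cannot be told apart. *Etv2* itself had 0.220–2.52 CPM in *Etv2* Δ/Δ, 0.220–2.98 CPM in *Etv2* enhΔ/Δ, 0–0.388 CPM in *Etv2* enhΔ/enhΔ, 0.729–3.59 CPM in *Etv2* +/Δ, 0–0.158 CPM in *Etv2* +/enhΔ and 0–0.491 CPM in *Etv2* +/+, so the libraries labelled as carrying Δ were not the lowest; a count over the whole gene does not show which exons were read. Of the 11 libraries labelled male, 4 had more than 100 CPM of *Xist*. They were *Etv2* Δ/Δ replicates 1 and 2 (434 and 443 CPM) and *Etv2* +/Δ replicates 2 and 3 (504 and 645 CPM). The labels were kept, so labelled sex is an uncertain term where these genotypes are compared. The pseudogene *Ftl2-ps* stood at 36.5–50.2 CPM in 8 libraries, which are all of *Etv2* +/+ except replicate 1 and all of *Etv2* +/enhΔ except replicate 1, and at no more than 0.515 CPM in the other 23, so *Etv2* Δ/Δ and most of *Etv2* +/+ lie on opposite sides of that division, whereas *Etv2* Δ/Δ, enhΔ/Δ and +/Δ lie on the same side. P-values below measure the spread between these embryos.

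The 80 genes were abundant but far from equal. Over all libraries they made up 0.874% to 1.59% of the summed CPM, and the 5 most abundant held 37.6% of their sum. Per kilobase of annotated exon, the highest mean levels were those of *Rplp1*, a protein of the flexible stalk of the large subunit (1176 CPM per kb), *Rpl4*, which lines part of the exit tunnel (1058 CPM per kb), and *Rpl32* (1020 CPM per kb). The lowest were *Rpl10l* (0.219 CPM per kb), *Rpl6l* (0.411 CPM per kb) and *Rpl39l* (0.835 CPM per kb). The median was 31.7 CPM per kb for the 79 genes with a gene model, against 3.61 CPM per kb for protein-coding genes, and 72 of the 79 lay above that second value.

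Pairs of a gene and a related copy (paralog) differed widely in level, and the likeness of their proteins was not computed. *Rpl10* averaged 21.7 CPM and *Rpl10l*, known in the mouse as its copy in male germ cells, 0.223 CPM, and *Rpl39* averaged 232 CPM against 0.694 CPM for *Rpl39l*. In these pairs the parent gene was higher in 31 of 31 libraries. The order was the other way for *Rps27*, which averaged 1.37 CPM against 211 CPM for *Rps27l*, and for *Rpl36a*, which averaged 14.5 CPM against 85.2 CPM for *Rpl36al*; the copy was higher in 31 of 31 libraries. *Rps4x* (83.3 CPM) stood above *Rps4l* (28.3 CPM), *Rpl22* (445 CPM) above *Rpl22l1* (134 CPM) and *Rpl7* (205 CPM) above *Rpl7l1* (54.3 CPM), again in every library. *Rpl3l* was not analysed here.

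These levels depend on how reads were assigned. Ribosomal protein genes have many processed pseudogenes, and how reads with several matches were counted is not given in the sources used here. Of the 50-base words of each transcript, a median of 42.2% was found nowhere else in the genome for the 79 genes, against 100% for the 76 mitochondrial ribosomal protein genes. This share was under 50% for 44 of the 79 genes and for 4 of the 76. The 44 genes with mostly shared words had a median of 12.6 CPM per kb, and the other 35 a median of 65.2 CPM per kb. Across the 79 genes, which are not independent replicates, the level per kb and the unique share had a Spearman correlation of 0.46 and a Pearson correlation of 0.43. The share was 0.338% for *Rps27* and 73.3% for *Rps27l*, so the levels of that pair are uncertain, and it was 1.92% for *Rps12*, 5.73% for *Rpl10* and 15.6% for *Rpl27*, which are also reported below. It was 82.2% for *Rpl4*, 55.6% for *Rpl23* and 55.3% for *Rpl34*.

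**Figure D1:**
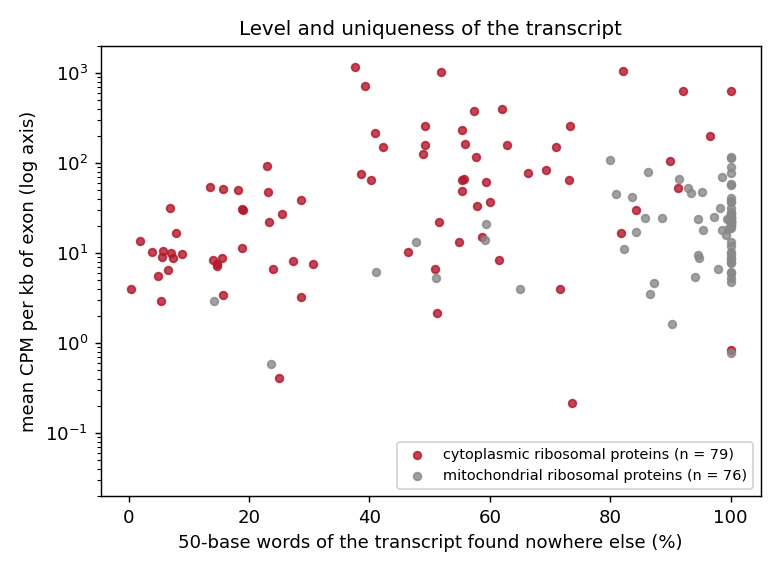
Mean level of each gene per kilobase of exon (y axis, CPM per kb, log axis) against the percent of its 50-base words found nowhere else in the genome (x axis), for 79 cytoplasmic ribosomal protein genes (red) and 76 mitochondrial ribosomal protein genes (grey). Most grey points sit at or near 100%, while 44 of the 79 red points lie under 50%.

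The first question was whether the ribosomal protein genes as a whole differed with loss of *Etv2*. Summed over the 80 genes, *Etv2* Δ/Δ yolk sacs had 9010, 12008, 11349, 10771 and 11368 CPM. *Etv2* +/Δ yolk sacs had 10188 to 14105 CPM with a median of 12930 CPM, and *Etv2* +/+ yolk sacs had 11466 to 14387 CPM with a median of 12673 CPM. The *Etv2* Δ/Δ values lay low but overlapped both groups, and their mean was 85.5% of the *Etv2* +/+ mean. The other 4 genotypes averaged 97.1% to 99.4% of it, and each of those 4 crossed 100% when single libraries were left out. When mitochondrial and globin genes were left out of the total, the 80 genes took 1.09% to 1.326% of the rest in *Etv2* Δ/Δ, 1.16% to 1.62% in *Etv2* +/Δ and 1.328% to 1.62% in *Etv2* +/+. On this measure *Etv2* Δ/Δ lay below *Etv2* +/+ without overlap, by a narrow margin, and overlapped *Etv2* +/Δ. These sums are descriptions without a test.

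The balance of the subunits was set out in the same way, again without a test. The sum of the large subunit genes over that of the small subunit genes was 1.24 to 1.33 in *Etv2* Δ/Δ and 1.19 to 1.38 in *Etv2* +/+, ranges that overlap throughout. It was 1.08 to 1.22 in *Etv2* enhΔ/enhΔ, below the 1.30 to 1.41 of *Etv2* +/Δ in every library and overlapping *Etv2* +/+.

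**Figure D2:**
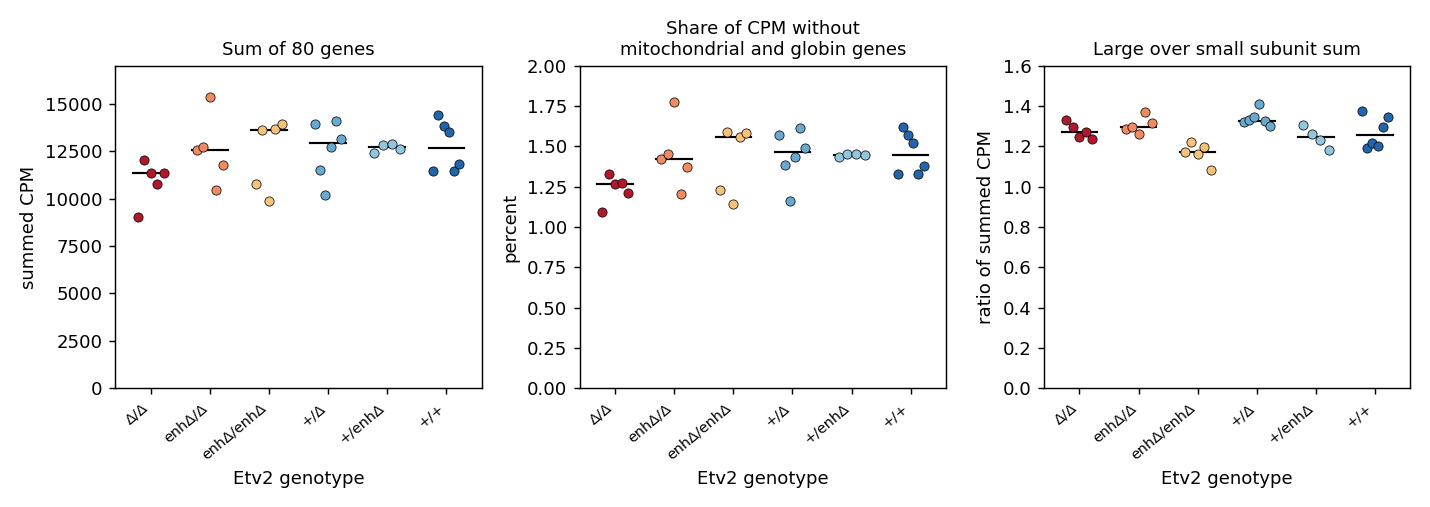
Summed CPM of the 80 genes (left), their percent of CPM after mitochondrial and globin genes were left out (middle) and the ratio of large to small subunit sums (right), by *Etv2* genotype; points are libraries and lines are medians. *Etv2* Δ/Δ averaged 85.5% of *Etv2* +/+ in summed CPM with overlapping libraries, and the ratio was lowest in *Etv2* enhΔ/enhΔ (1.08 to 1.22).

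In *Etv2* Δ/Δ against *Etv2* +/+ yolk sacs, 6 of the 80 genes fell and none rose. Tests used limma across all genes with Benjamini-Hochberg adjustment and a threshold of 0.05 on the adjusted p, and differences are on the scale of log2(CPM + 1). The 6 genes were 7.5% of the 80, while 7.69% of all 18477 genes were called lower and 5.6% higher, so the share of ribosomal protein genes that fell was near that over all genes. The difference was negative for 69 of the 80 genes, with a median of −0.19 against −0.0067 over all genes. The median was −0.19 for both the large and the small subunit genes. At an unadjusted p under 0.05, 20 of the 80 were lower and 2 higher, against 2518 and 2204 of all 18477 genes. The 6 genes are described in the order small subunit, then large.

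*Rps12*, a protein of the beak of the small subunit, had 5.29, 4.49, 4.13, 5.66 and 4.53 CPM in *Etv2* Δ/Δ, against 7.18 to 10.4 CPM in *Etv2* +/+ with a median of 9.62 CPM. All 5 *Etv2* Δ/Δ libraries lay below all 6 *Etv2* +/+ libraries. The difference was −0.78 (SE 0.21, adjusted p = 0.0118). *Rps12* was also below *Etv2* +/+ in each *Etv2* enhΔ/Δ library (5.20, 5.64, 6.59, 7.08 and 5.89 CPM) and in each *Etv2* +/enhΔ library (6.97, 5.31, 5.51 and 6.30 CPM), where neither difference passed the test (adjusted p = 0.308 and 0.999) and where 1.99% and 0.314% of all genes lay wholly below. In *Etv2* +/Δ, 5 of 6 libraries were at 5.15 to 7.05 CPM, below the lowest *Etv2* +/+ library, and replicate 1 was at 10.9 CPM. *Etv2* enhΔ/enhΔ had 6.85 to 10.7 CPM and overlapped *Etv2* +/+.

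*Rpl23*, a core protein at the interface of the subunits, had 97.1, 97.9, 103, 109 and 109 CPM in *Etv2* Δ/Δ, against 116 to 136 CPM in *Etv2* +/+ with a median of 126 CPM. It fell by 0.27 on the log2 scale (SE 0.07, adjusted p = 0.0130). The groups did not overlap, and the *Etv2* Δ/Δ libraries also lay below every *Etv2* +/Δ library (116 to 130.2 CPM), where the difference of −0.20 narrowly missed the threshold (adjusted p = 0.0556). *Rpl23* was the one gene of the 80 that stood below both *Etv2* +/+ and *Etv2* +/Δ without overlap, and 4.3% of all genes lay wholly below *Etv2* +/Δ.

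*Rpl4*, the most abundant of the 6, had 1151, 1445, 1249, 1332 and 1354 CPM in *Etv2* Δ/Δ, against 1508 to 1749 CPM in *Etv2* +/+ with a median of 1612 CPM. Again no *Etv2* Δ/Δ library reached the lowest *Etv2* +/+ library. The difference was −0.29 (SE 0.09, adjusted p = 0.0326). *Etv2* enhΔ/Δ yolk sacs, at 1499 to 1610.4 CPM, also lay wholly above *Etv2* Δ/Δ, a difference of −0.25 that did not pass (adjusted p = 0.133).

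In the other 3 genes the groups overlapped. *Rpl37* had 43.5, 54.2, 63.3, 54.7 and 70.2 CPM in *Etv2* Δ/Δ, against 69.4 to 84.3 CPM in *Etv2* +/+ with a median of 74.0 CPM, a difference of −0.35 (SE 0.10, adjusted p = 0.0162). Only *Etv2* Δ/Δ replicate 5 reached into the *Etv2* +/+ range. *Rpl27*, a Diamond-Blackfan anaemia gene, had 6.05, 9.72, 5.84, 7.41 and 13.0 CPM in *Etv2* Δ/Δ, against 11.1 to 19.8 CPM in *Etv2* +/+ with a median of 14.0 CPM, a difference of −0.72 (SE 0.21, adjusted p = 0.0192). Here too a single *Etv2* Δ/Δ library, replicate 5, overlapped. *Rpl14* had 81.6, 141, 127, 127 and 85.8 CPM in *Etv2* Δ/Δ, against 123 to 180.1 CPM in *Etv2* +/+ with a median of 160.1 CPM, a difference of −0.51 (SE 0.16, adjusted p = 0.0267). In *Rpl14*, 3 of 5 *Etv2* Δ/Δ libraries lay inside the *Etv2* +/+ range.

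Libraries of *Etv2* Δ/Δ lay wholly below *Etv2* +/+ for 5 of the 80 genes (6.25%), which adds *Rpl35* and *Rps7* to the 3 above, against 4.45% of all genes. For *Rps7* the values were 30.2, 50.6, 51.4, 46.4 and 51.1 CPM in *Etv2* Δ/Δ and 52.9 to 70.5 CPM in *Etv2* +/+, with an adjusted p of 0.139. None lay wholly above, against 2.54% of all genes.

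The 8 libraries with high *Ftl2-ps* hold 5 of the 6 *Etv2* +/+ libraries and no *Etv2* Δ/Δ library. With that state as a term none of the 80 genes was called lower in *Etv2* Δ/Δ against *Etv2* +/+, and none was called for the state itself (0.0108% of all genes higher, 0.00541% lower), although 298 of all genes were still called higher and 588 lower between the genotypes. The median of the 80 genes was −0.11 with the term, and −0.04 with none called in the 23 libraries of low *Ftl2-ps*, which keep 1 *Etv2* +/+ library. The count of 6 was also 2 without *Etv2* Δ/Δ replicate 1 and 2 without *Etv2* +/+ replicate 2. Of all libraries, *Etv2* Δ/Δ replicate 1 had the fewest reads in genes (2671612) and the lowest sum of the 80 genes (9010 CPM). Whether the 6 genes differ through the genotype or through what divides the libraries cannot be told apart from this comparison alone.

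*Etv2* Δ/Δ against *Etv2* +/Δ avoids that division, and there 3 of the 80 genes fell (3.75%, against 7.59% of all genes called lower and 5.86% called higher) and none rose. The pattern over the set was much like the one against *Etv2* +/+, which shares the *Etv2* Δ/Δ libraries, with 69 genes negative and a median of −0.19 against −0.0068 over all genes. At an unadjusted p under 0.05, 10 of the 80 were lower and none was higher, against 2470 and 2238 of all 18477 genes. The count of 3 was 0 without *Etv2* Δ/Δ replicate 3 and 1 without *Etv2* +/Δ replicate 1. Labelled sex, uncertain in both genotypes, was a term in this fit. With no sex term, *Rpl4*, *Rpl23* and *Rpl37* were called lower as well.

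*Rpl27* fell here as well, by 0.77 on the log2 scale (SE 0.20, adjusted p = 0.00899), against 10.2 to 19.3 CPM in *Etv2* +/Δ with a median of 15.6 CPM. *Rpl10*, which joins the large subunit late and is needed before it can take part in translation, had 20.03, 12.9, 11.2, 16.9 and 18.9 CPM in *Etv2* Δ/Δ, against 16.3 to 32.7 CPM in *Etv2* +/Δ with a median of 25.2 CPM. The difference was −0.64 (SE 0.19, adjusted p = 0.0204), with 3 of the 5 *Etv2* Δ/Δ libraries inside the range of *Etv2* +/Δ. *Rplp0*, the base of the ribosomal stalk and a common reference gene for PCR, had 244, 449, 350.4, 336 and 355 CPM in *Etv2* Δ/Δ, against 359 to 531 CPM in *Etv2* +/Δ with a median of 482 CPM. The difference was −0.39 (SE 0.13, adjusted p = 0.0485), at the edge of the threshold and with 1 of 5 *Etv2* Δ/Δ libraries inside the *Etv2* +/Δ range.

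**Figure D3:**
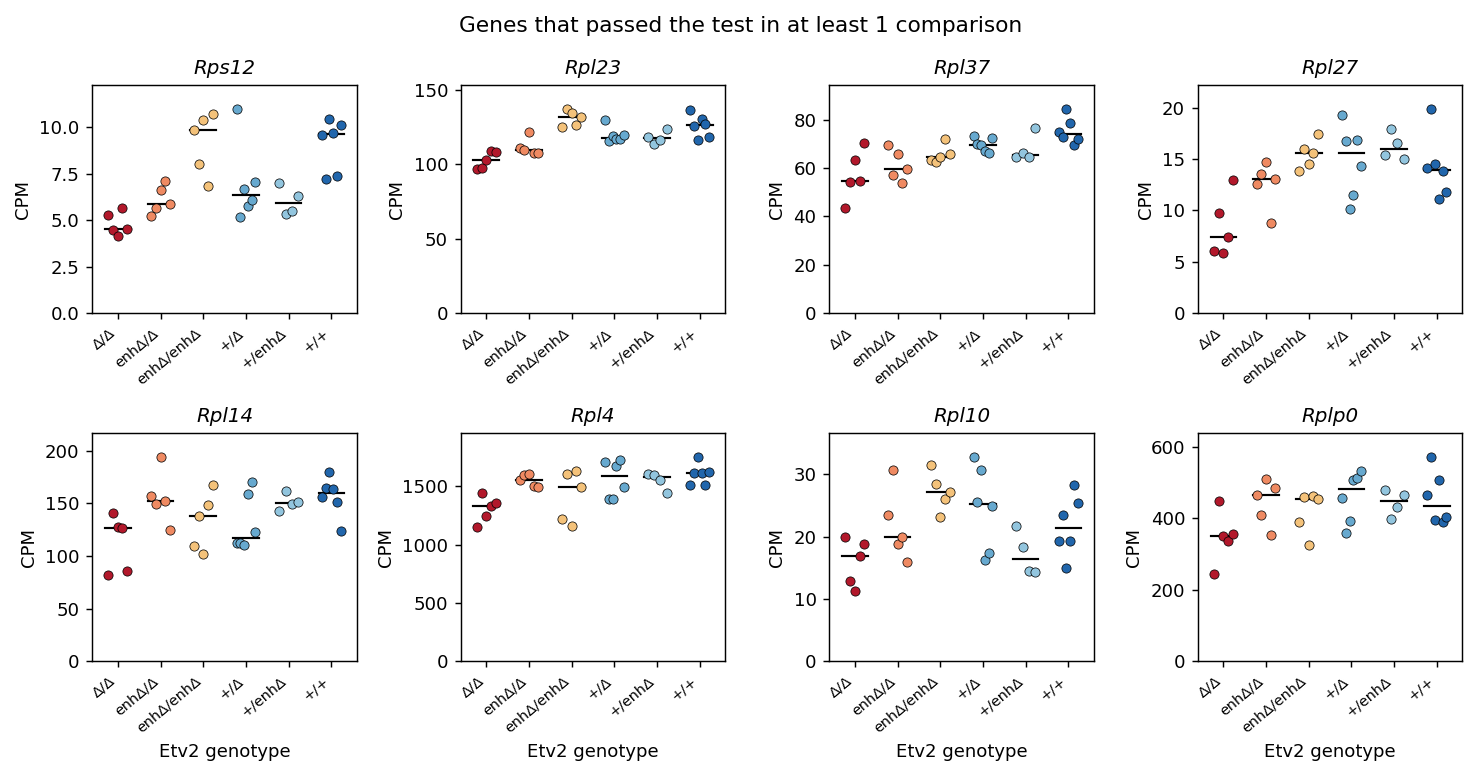
Level (CPM, y axes from 0) of the 8 genes that passed the test in *Etv2* Δ/Δ against *Etv2* +/+ or *Etv2* +/Δ, by *Etv2* genotype; points are libraries and lines are medians. *Rps12*, *Rpl23* and *Rpl4* in *Etv2* Δ/Δ lie below all 6 *Etv2* +/+ libraries, and the other 5 genes overlap.

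The compound heterozygote showed little of this. No gene of the 80 passed in *Etv2* enhΔ/Δ against *Etv2* +/+ with limma, where 0.99% of all genes were called lower and 0.336% higher, and none passed against *Etv2* +/Δ (0.871% and 0.373%), nor with voom on the recovered reads in either comparison. At an unadjusted p under 0.05, 4 of the 80 were lower and 2 higher against *Etv2* +/+, where 1082 and 1078 of all 18477 genes were. Against *Etv2* +/Δ, 3 were lower and 1 higher, where 1155 and 1182 of all genes were. The medians were −0.03 and −0.05, with 48 and 46 of the 80 genes negative. The smallest p-values belonged to *Rpl37* (−0.27, adjusted p = 0.214) and *Rps4l* (0.73, adjusted p = 0.235) against *Etv2* +/+, and to *Rpl5* (−0.70, adjusted p = 0.238) and *Rpl30* (−0.48, adjusted p = 0.305) against *Etv2* +/Δ.

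Set directly against each other, *Etv2* Δ/Δ and *Etv2* enhΔ/Δ differed in none of the 80 genes by limma or voom, with 3.36% of all genes called lower and 1.55% higher. At an unadjusted p under 0.05, 16 of the 80 were lower and none higher, against 1809 and 1340 of all 18477 genes. The difference was negative for 61 of the 80 genes, with a median of −0.15 against −0.02 over all genes. The nearest to the threshold were *Rpl14* (−0.49, adjusted p = 0.0726) and *Rps7* (−0.52, adjusted p = 0.0982). *Rps7* and *Rpl4* were the 2 genes (2.5%, against 3.6% of all genes) whose *Etv2* Δ/Δ libraries all lay below those of *Etv2* enhΔ/Δ.

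None of the 80 genes passed in the genotypes with milder loss, by limma or voom. In *Etv2* enhΔ/enhΔ against *Etv2* +/+ (0.0162% of all genes lower, 0.00541% higher), 2 were lower and 1 higher at an unadjusted p under 0.05. At that unadjusted threshold 669 of all 18477 genes were lower and 651 higher. The smallest p among the 80 belonged to *Rpl26* (−1.79, adjusted p = 0.458). In *Etv2* +/Δ against *Etv2* +/+ (0.0216% lower, 0.00541% higher), 2 were lower and 2 higher at an unadjusted p under 0.05, where 571 and 498 of all genes were. The smallest p-values belonged to *Rpl34* (1.03, adjusted p = 0.796) and *Rpl35a* (1.10, adjusted p = 0.813). In *Etv2* +/enhΔ against *Etv2* +/+ (0% of all genes in either direction), 1 was lower and none higher at an unadjusted p under 0.05, where 348 and 473 of all genes were. *Rps12* (−0.51) and *Rpl10* (−0.40) came first, with an adjusted p of 0.999 for both.

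Over all 6 genotypes at once, a moderated F test called 4 of the 80 genes (12.1% of all genes were called): *Rpl34* (adjusted p = 0.00648), *Rpl10* (0.0241), *Rpl27* (0.0241) and *Rpl23* (0.0266). At an unadjusted p under 0.05 there were 11 of the 80, a count for which no share over all genes was taken. The next by adjusted p were *Rps12* (0.0508), *Rpl37* (0.0894), *Rpl14* (0.111), *Rpl4* (0.126), *Rps27a* (0.146), which is made as a fusion with ubiquitin, and *Rpl26* (0.166).

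*Rpl34*, of the large subunit, led this test with a pattern unlike the others. Its libraries fell into separate levels, and no library stood between 28.3 and 75.6 CPM. *Etv2* Δ/Δ had 135, 126, 117, 75.6 and 119 CPM and *Etv2* enhΔ/Δ had 79.3, 85.5, 118, 78.7 and 96.4 CPM, all above that gap. *Etv2* enhΔ/enhΔ had 24.5, 24.4, 76.6, 25.7 and 25.4 CPM, and *Etv2* +/enhΔ had 79.0, 28.3, 24.1 and 24.1 CPM, each with a single library above the gap. *Etv2* +/Δ ran from 23.5 to 160.0 CPM with a median of 126 CPM and 1 of 6 libraries below the gap, and *Etv2* +/+ ran from 22.7 to 92.9 CPM with a median of 54.0 CPM and 3 of 6 libraries on each side. *Etv2* Δ/Δ against *Etv2* +/+ gave a difference of 1.21 (SE 0.44, adjusted p = 0.0636). Set beside the *Ftl2-ps* division, all 5 *Etv2* enhΔ/enhΔ libraries had low *Ftl2-ps*, as *Etv2* Δ/Δ and enhΔ/Δ did. In *Etv2* +/enhΔ the library with low *Ftl2-ps*, replicate 1, was the one with high *Rpl34*, and in *Etv2* +/+ high *Rpl34* was found in replicate 1, with low *Ftl2-ps*, and in replicates 5 and 6, with high *Ftl2-ps*. In the fit that holds this state, *Rpl34* was not called for high against low *Ftl2-ps* (limma, −1.26, SE 0.52, adjusted p = 0.998). The F test over genotypes called *Rpl34* in all 41 alternatives run, that fit and the 23 libraries of low *Ftl2-ps* among them, with adjusted p of 2.3e-04 to 0.0366.

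Other genes also had separate levels that crossed the genotypes. They were chosen after their values were seen, as the 5 genes whose highest and lowest libraries differed by over 3 log2 units, and are described without a test. *Rpl3*, a core protein near the peptidyl transferase centre, had no library between 7.75 and 25.1 CPM, with 10 libraries above. *Rpl29* had none between 2.21 and 14.0 CPM, also with 10 above, *Rpl26* none between 10.1 and 39.4 CPM with 27 above, *Rps18* none between 9.18 and 23.1 CPM with 23 above, and *Rpl35a* none between 27.4 and 49.6 CPM with 23 above.

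High and low libraries of these 5 genes occurred within the same genotype. *Rpl29* had 21.9, 14.6, 0.826, 1.34 and 15.1 CPM in *Etv2* Δ/Δ, and 0.880 to 21.9 CPM with a median of 1.78 CPM in *Etv2* +/+. *Rpl26* had 57.9, 9.07, 8.15, 10.1 and 142 CPM in *Etv2* enhΔ/enhΔ, whereas in *Etv2* +/+ it stayed between 55.1 and 107 CPM. *Rpl35a* had 89.6, 102, 113, 92.6 and 109 CPM in *Etv2* Δ/Δ, and 17.3 to 105 CPM with a median of 45 CPM in *Etv2* +/+. The *Etv2* Δ/Δ libraries of *Rpl35a* were all on the high side, and the difference of 1.27 against *Etv2* +/+ did not pass (adjusted p = 0.113). The unique share of the transcript was 8.84% for *Rpl3*, 14.0% for *Rpl29*, 18.2% for *Rpl26*, 18.9% for *Rps18* and 23.3% for *Rpl35a*, all under the median of 42.2%. The part of reads shared with pseudogenes in these levels was not tested.

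**Figure D4:**
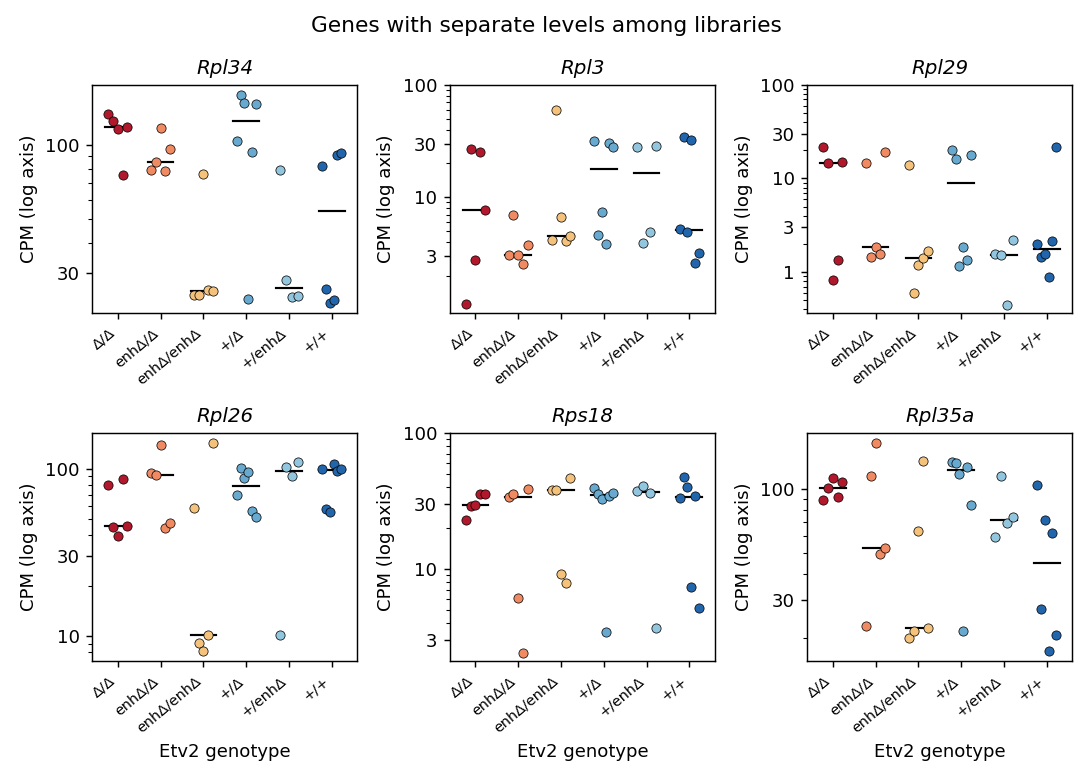
Level (CPM, log axes) of *Rpl34* and of the 5 genes with a range over 3 log2 units, by *Etv2* genotype; points are libraries and lines are medians. Each gene has an empty stretch, such as 28.3 to 75.6 CPM in *Rpl34*, and for each gene at least 1 genotype has libraries on both sides of it.

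The range of the 80 genes over 31 libraries had a median of 1.22 log2 units and was under 1 log2 unit for 24 of them. The SD within genotypes was set beside that of other genes of like level. Among genes with a mean of 2 to 4 on the log2 scale it exceeded 0.7 for 3 of 18 ribosomal protein genes (16.7%) and for 11.4% of other genes, and among those with a mean of 4 to 6 for 3 of 18 (16.7%) and for 1.25%. With a mean of 6 to 8 it did so for 1 of 25 (4%) and for 0.698% of other genes, with a mean over 8 for 0 of 14 and for 0.328%, and with a mean under 2 for 0 of 5 and for 10.01%. The median SD was 0.24 for ribosomal protein genes and 0.22 for other genes with a mean of 6 to 8, and 0.22 and 0.16 with a mean over 8. At lower levels the order was the other way. There the medians were 0.34 and 0.41 with a mean under 2, 0.30 and 0.51 with 2 to 4, and 0.31 and 0.32 with 4 to 6.

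Ribosomal protein genes also moved with the share of mitochondrial reads in a library. That share was 8.10% to 18.2% in *Etv2* Δ/Δ, 7.18% to 24.6% in *Etv2* +/Δ and 9.69% to 16.5% in *Etv2* +/+, and these 3 genotypes overlapped. It was 7.55% to 10.2% in *Etv2* enhΔ/Δ and 10.5% to 20.9% in *Etv2* enhΔ/enhΔ, which did not overlap each other, and 8.68% to 12.3% in *Etv2* +/enhΔ. Entered as a term beside genotype and sex, it called 28 of the 80 genes lower with a higher share (17 large, 11 small subunit), against 3.24% of all genes, and 1 gene, *Rpl34*, higher, against 1.53% of all genes. *Rpl7* fell by 0.042 log2 units per percentage point (adjusted p = 1.2e-04), and *Rpl34* rose by 0.10 (adjusted p = 0.0338). The 28 include *Rpl4*, *Rpl14* and *Rplp0* of the genes described above. With this term in the fit, 14 of the 80 genes were lower and 1 higher (*Rpl34*) in *Etv2* Δ/Δ against *Etv2* +/+, where 8.57% of all genes were lower and 6.09% higher. Against *Etv2* +/Δ, 12 of the 80 were lower and none higher, where 8.39% of all genes were lower and 5.99% higher. *Etv2* Δ/Δ replicate 1, with 18.2% mitochondrial reads, had 63 of the 80 genes below the mean of its genotype, *Etv2* enhΔ/enhΔ replicate 3, with 20.9%, had 69, and *Etv2* +/Δ replicate 3, with 24.6%, had 66. *Etv2* enhΔ/Δ did not follow this order, with 69 genes below in replicate 4 at 9.35% and 15 below in replicate 3 at 10.2%, the highest share of that genotype.

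Labelled sex called none of the 80 genes (0.0271% of all genes were higher and 0.00541% lower in males). By their *Xist*, the label was in doubt in 4 libraries labelled male, all of them *Etv2* Δ/Δ or *Etv2* +/Δ. The 4 X-linked genes differed between *Etv2* Δ/Δ and *Etv2* +/+ by −0.54 for *Rpl10* (adjusted p = 0.0660), −0.28 for *Rpl36a*, −0.07 for *Rpl39* and 0.01 for *Rps4x*, and none passed.

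Genes that act around the ribosome were set beside its proteins. The ribosome biogenesis list holds the transcription factors *Myc* and *Mycn*. Its other genes make ribosomal RNA or assemble the subunits, nucleolar factors and RNA polymerase I subunits among them. In *Etv2* Δ/Δ, 28 of the 43 genes of this list fell and none rose against *Etv2* +/+ (65.1%, against 7.69% of all genes lower, median −0.57). Against *Etv2* +/Δ, 32 of 43 fell (74.4%, against 7.59%, median −0.60). The largest fall was that of *Myc*, a transcription factor that drives ribosome production, at 24.3 CPM in *Etv2* Δ/Δ against 118 CPM in *Etv2* +/+ (−2.33, adjusted p = 3.57e-11). *Polr1e*, a subunit of RNA polymerase I, followed (−1.43, adjusted p = 1.94e-07), then *Dkc1*, the pseudouridine synthase of ribosomal RNA (−1.06, adjusted p = 6.52e-08), and *Rrp12*, an assembly factor (−1.05, adjusted p = 4.22e-06). *Mycn* was at 32.3 CPM in *Etv2* Δ/Δ and 34.97 CPM in *Etv2* +/+ (adjusted p = 0.826).

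The *Ftl2-ps* division was also entered for this list. With that term in the fit, 14 of 43 biogenesis genes were lower against *Etv2* +/+ and 32 against *Etv2* +/Δ, where 588 and 1393 of all 18477 genes were. In the 23 libraries of low *Ftl2-ps*, 3 biogenesis genes were lower against *Etv2* +/+ and 28 against *Etv2* +/Δ, where 233 and 1252 of all genes were. *Etv2* Δ/Δ was lower than *Etv2* enhΔ/Δ in 12 of 43 genes (27.9%, against 3.36% of all genes). In *Etv2* enhΔ/Δ itself, *Myc* alone fell against *Etv2* +/+ (−0.72, adjusted p = 0.0378), which is 2.33% of the 43 genes, against 0.99% of all genes, and 3 genes fell against *Etv2* +/Δ (6.98%, against 0.871%). Before adjustment, 14 of the 43 were lower against *Etv2* +/+ at a limma p under 0.05 and none higher, where 1082 and 1078 of all genes were. Against *Etv2* +/Δ, 15 were lower and none higher, where 1155 and 1182 of all genes were. The medians of the 43 genes were −0.18 and −0.23. With the *Ftl2-ps* term, 0 of the 43 genes, *Myc* included, passed in *Etv2* enhΔ/Δ against *Etv2* +/+.

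Mitochondrial ribosomal proteins, which make a separate ribosome, fell in 19 of 76 genes in *Etv2* Δ/Δ against *Etv2* +/+ (25%, against 7.69% of all genes, median −0.32) and in 14 against *Etv2* +/Δ (18.4%, against 7.59%, median −0.30). *Mrpl38* was at 7.25 CPM in *Etv2* Δ/Δ and 13.8 CPM in *Etv2* +/+ (−0.94, adjusted p = 0.00163). In *Etv2* enhΔ/Δ, *Mrpl35* (−0.80, adjusted p = 3.37e-04) and *Mrpl36* (−0.49, adjusted p = 0.0242) fell against *Etv2* +/+ (2.63% of the 76 genes, against 0.99% of all genes). Summed erythroid and endothelial markers were lower and extraembryonic mesoderm markers higher in *Etv2* Δ/Δ, at the levels given above, and their part in the falls of these lists was not tested.

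**Figure D5:**
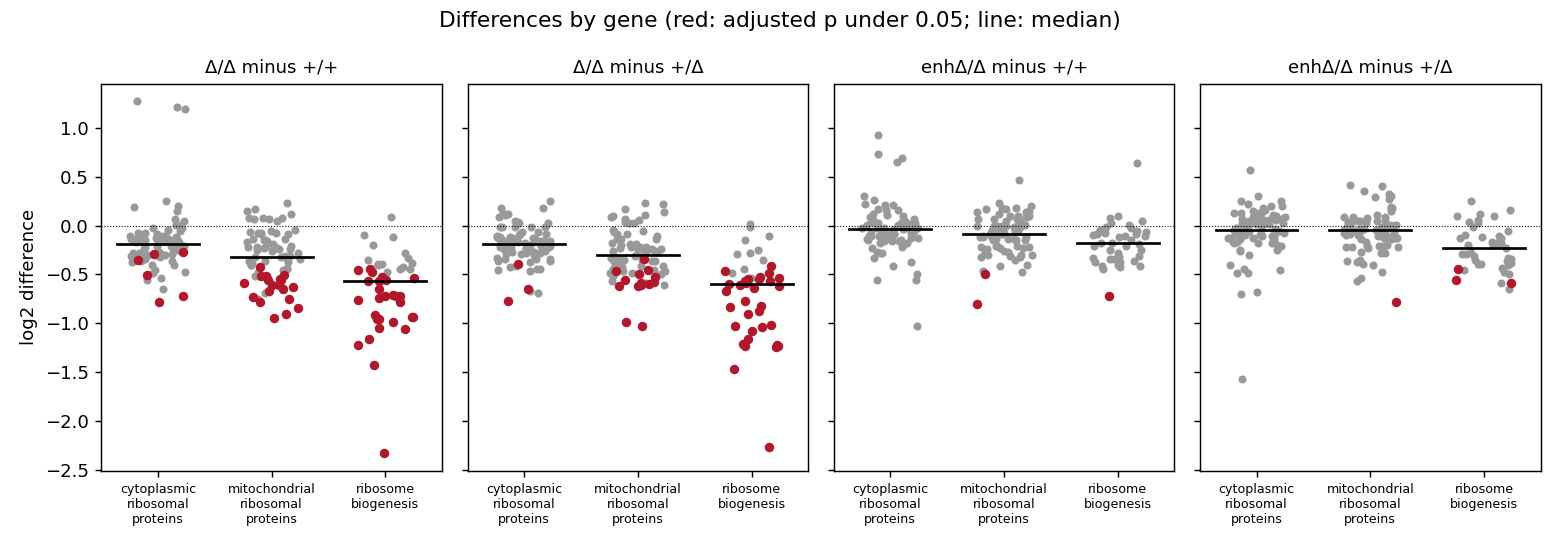
Log2 difference of each gene (y axis) in *Etv2* Δ/Δ and *Etv2* enhΔ/Δ, each minus *Etv2* +/+ or *Etv2* +/Δ, for cytoplasmic ribosomal proteins (n = 80), mitochondrial ribosomal proteins (n = 76) and ribosome biogenesis (n = 43); red points have an adjusted p under 0.05 and lines are medians. In *Etv2* Δ/Δ minus *Etv2* +/+ the medians were −0.19, −0.32 and −0.57.

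Another list took translation factors and other transcripts described as having an oligopyrimidine start, which was not checked for these genes. Of its 24 genes, 5 were lower in *Etv2* Δ/Δ against *Etv2* +/+ and none higher (20.8%, against 7.69% of all genes lower, median −0.22). *Larp1*, which binds the oligopyrimidine tract, was at 217 CPM in *Etv2* Δ/Δ and 376 CPM in *Etv2* +/+ (−0.78, adjusted p = 3.33e-05), and *Pabpc1*, the poly(A)-binding protein, at 989.9 CPM in *Etv2* Δ/Δ and 1401 CPM in *Etv2* +/+ (−0.48, adjusted p = 1.32e-04). The other 3 were *Eif3e*, *Eif3f* and *Btf3*. Against *Etv2* +/Δ, 4 of the 24 were lower (16.7%, against 7.59% of all genes). Among proteins bound to the ribosome or made as fusions, 1 of 3 fell against *Etv2* +/+, *Rack1*, a signalling scaffold of the small subunit (−0.33, adjusted p = 0.00972). Of the copies outside the symbol rule 2 of 3 fell against *Etv2* +/+, *Rpl7l1* (−0.42) and *Rpl36al* (−0.47). Against *Etv2* +/Δ, *Rack1* passed (−0.26, adjusted p = 0.0399). *Rpl7l1* (−0.33, adjusted p = 0.0906) and *Rpl36al* (−0.35, adjusted p = 0.0638) did not pass there. The 124 named pseudogenes of ribosomal protein genes gave no call in either comparison, by limma. At an unadjusted p under 0.05 against *Etv2* +/+, 2 of the 124 were lower and 1 higher, where 2518 and 2204 of all 18477 genes were.

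*Rpl27* was the sole gene called among 20 whose human counterparts are mutated in Diamond-Blackfan anaemia, against *Etv2* +/+ as against *Etv2* +/Δ (5%, against 7.69% and 7.59% of all genes called lower). Their median difference from *Etv2* +/+ was −0.26, and 19 of the 20 were negative (95%, against 86.25% of the 80 genes and 50.8% of all genes). *Rps19*, the gene most often mutated in people, was at 85.6 CPM in *Etv2* Δ/Δ and 119 CPM in *Etv2* +/+ (−0.48, adjusted p = 0.0640). Further small subunit genes of the list differed by −0.04 (*Rps28*), −0.08 (*Rps29*), −0.12 (*Rps20*), −0.16 (*Rps26*), −0.22 (*Rps24*), −0.25 (*Rps15a*), −0.29 (*Rps10*), −0.40 (*Rps7*) and −0.47 (*Rps27*). The other large subunit genes differed by −0.15 (*Rpl11*), −0.19 (*Rpl15*), −0.27 (*Rpl18*), −0.30 (*Rpl31*), −0.38 (*Rpl5*), −0.40 (*Rpl35*), −0.65 (*Rpl26*) and 1.27 (*Rpl35a*), and none of these passed. Of 16 genes of the p53 pathway, 2 fell and none rose against *Etv2* +/+ (12.5%, against 7.69% of all genes lower), *Pidd1* (−1.28, adjusted p = 0.00603) and *Aen* (−0.84, adjusted p = 0.0322). Against *Etv2* +/Δ, 3 fell and none rose (18.75%, against 7.59%), *Pidd1*, *Mdm2* and *Trp53*.

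Ribosomal proteins are often used as reference genes for PCR, and they were set beside other such genes. Of 17 reference genes, 3 fell in *Etv2* Δ/Δ against *Etv2* +/+ (17.6%, against 7.69% of all genes), among them *Hprt* (−1.05, adjusted p = 6.11e-08) and *Tbp* (−0.69, adjusted p = 0.00856). Against *Etv2* +/Δ, 3 of the 17 fell (17.6%, against 7.59% of all genes), *Hprt* among them (−0.99, adjusted p = 1.10e-07). *Tbp* did not pass there (−0.38, adjusted p = 0.158). None of the 6 ribosomal protein genes among the 17 passed against *Etv2* +/+, and *Rplp0* was the one that did against *Etv2* +/Δ. Their differences from *Etv2* +/+ were −0.36 for *Rplp0*, −0.17 for *Rpl13a*, −0.14 for *Rpl19*, −0.12 for *Rpl32*, 0.19 for *Rps16* and 0.25 for *Rps18*. *Actb* differed by 0.03 and *Eef1a1* by −0.00054, with adjusted p of 0.889 and 0.998.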

How the data were processed

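Per the labels, total RNA from individual E8.5 yolk sacs was made into libraries with the Trio RNA-seq kit. The submitters' processing notes name FastQC, STAR 2.5.2a, featureCounts from Subread and the mouse build mm9, and the study's methods name edgeR with calcNormFactors for scaling. The values deposited by the authors are log2(CPM + 1) per gene in 31 libraries, and CPM and whole reads were taken back from them. Another 9 columns hold the authors' own comparisons and were not used. The study's methods include a batch of processing that the labels do not give, so it could not be modelled. The treatment of reads with several matches is not given in the sources used here.

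The log2 values of all 18477 genes were fitted with limma 3.58.1 in R 4.3.3 (genotype and labelled sex, trended eBayes, no filter, 24 residual degrees of freedom), and p-values were adjusted by Benjamini-Hochberg over all genes. The fit was tested on simulated data. A planned count test was not run, and limma voom on the recovered reads was used in its place, an alternative chosen after seeing the data. Sums, ranges and correlations are descriptions (Python 3.11.15, pandas 2.3.3, numpy 2.4.6, scipy 1.17.1, matplotlib 3.10.9). Promoter windows run from 250 bases before to 50 bases after each RefSeq start, and the 50-base word counts were added after seeing the data.

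Named are the 10 genes with the smallest F test p, the largest 5 called per direction and comparison (or the 2 with the smallest p), the 3 highest and 3 lowest per length, pairs of a gene and its paralog, X-linked genes, the disease and PCR reference lists, and genes without overlap between groups. A few genes that this rule names are not reported here. The members and lists were chosen with earlier results of these data known. Alternatives left out each library, changed the filter, offset, scaling, threshold or terms, or kept only the groups compared.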

Additional observations from a re-analysis of the deposited data

Results flagged for a closer look

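A library stood apart from the rest of its group, by its gap to the nearest library as a share of the whole range, in 14 of 114 groups (19 genes or sums). Chance alone flags about 1 in 20 groups, but 5 of the genes were taken up for their wide ranges, so the 14 cannot be read against that rate. No library was removed. *Rps12* was at 10.9 CPM in *Etv2* +/Δ replicate 1, against 5.15–7.05 CPM in the others. *Rpl23* was at 122 CPM in *Etv2* enhΔ/Δ replicate 3 (others 108–111 CPM) and at 130.2 CPM in *Etv2* +/Δ replicate 1 (others 116–119.6 CPM), and *Rpl37* at 76.7 CPM in *Etv2* +/enhΔ replicate 4 (others 64.5–66.1 CPM). *Rps7* was at 30.2 CPM in *Etv2* Δ/Δ replicate 1 (others 46.4–51.4 CPM) and at 104 CPM in *Etv2* enhΔ/Δ replicate 3 (others 54.2–64.8 CPM).

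The remaining cases belong to genes with separate levels. *Rpl34* was at 76.6 CPM in *Etv2* enhΔ/enhΔ replicate 3 (others 24.4–25.7 CPM) and at 79.0 CPM in *Etv2* +/enhΔ replicate 1 (others 24.1–28.3 CPM). *Rpl3* was at 6.91 CPM in *Etv2* enhΔ/Δ replicate 2 (others 2.57–3.75 CPM) and at 59.7 CPM in *Etv2* enhΔ/enhΔ replicate 2 (others 4.07–6.66 CPM). *Rps18* was low, at 3.47 CPM in *Etv2* +/Δ replicate 4 (others 33.0–39.7 CPM) and at 3.70 CPM in *Etv2* +/enhΔ replicate 4 (others 36.2–40.7 CPM). *Rpl29* was at 14.0 CPM in *Etv2* enhΔ/enhΔ replicate 1 (others 0.591–1.66 CPM) and at 21.9 CPM in *Etv2* +/+ replicate 6 (others 0.880–2.12 CPM).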

How the results depend on the processing

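None of the called gene differences changed sign. The count of genes lower in *Etv2* Δ/Δ against *Etv2* +/+, which was 6, became 0 at an adjusted p under 0.01, 0 with a term for *Ftl2-ps*, 0 with only the 23 libraries of low *Ftl2-ps*, which keep a single *Etv2* +/+ library, 14 with the mitochondrial share as a term and 1 with only the groups compared (*Rps19*, which is not among the 6). Leaving out libraries gave 2 to 8, with 2 without *Etv2* Δ/Δ replicate 1 and 2 without *Etv2* +/+ replicate 2. *Rpl34* made the count of genes higher in that comparison 1 with no sex term, 1 with the mitochondrial share, 1 with a replicate block, 1 with voom at the deposited scaling, 1 with voom at median-ratio scaling and 1 with a mean log2 of at least 1, and leaving out libraries gave 0 to 1. The count lower against *Etv2* +/Δ, which was 3, became 1 at an adjusted p under 0.01, 0 with only the groups compared, 6 with no sex term, 12 with the mitochondrial share and 5 with voom at the deposited scaling. Leaving out libraries gave 0 to 4, with 0 without *Etv2* Δ/Δ replicate 3 and 1 without *Etv2* +/Δ replicate 1. *Etv2* Δ/Δ against *Etv2* enhΔ/Δ had 0 genes lower, 1 with a mean log2 of at least 1, and 0 to 2 with libraries left out. The F test called 4 genes, 1 at an adjusted p under 0.01, 12 with the mitochondrial share, 2 with the 23 libraries, and 1 to 6 with libraries left out (1 without *Etv2* Δ/Δ replicate 3, 2 without replicate 1 and 2 without replicate 2). With libraries left out, the sum as a percent of *Etv2* +/+ was 83.3 to 89.2 in *Etv2* Δ/Δ, 93.2 to 103 in *Etv2* enhΔ/Δ, 94.1 to 102 in *Etv2* enhΔ/enhΔ, 96.4 to 103 in *Etv2* +/Δ and 97.5 to 102 in *Etv2* +/enhΔ, so those 4 sums crossed 100% in either direction. The causes of these shifts were not tested. The stricter threshold alone lowers counts by construction. *Rplp0* lost its call in 27 of 43 alternatives, *Rpl4* in 11 and *Rpl14* in 10.

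With a replicate block, *Etv2* Δ/Δ against *Etv2* +/+ gave 5 genes lower and 1 higher, *Etv2* Δ/Δ against *Etv2* +/Δ 2 lower and the F test 3. Same-numbered libraries did not deviate together (median correlation −0.016 over 71 pairs, against 0.003 over 328 others), so the numbers do not pair the samples. The planned edgeR and DESeq2 fits were not run. Depth limits what can be said of genes near or under 1 CPM, such as *Rps27* and *Rpl10l*.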
